A study of Homo sapiens with 4 samples.

Results

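Deep regions inside genes of ordinary length are stretches of open chromatin that lie in the body of a protein-coding gene, far from where the gene begins or ends. They were chosen from position alone. A region qualified if it overlapped a RefSeq protein-coding gene span, lay more than 10 kb from both ends of every protein-coding gene, and overlapped only genes shorter than 500 kb. Of 125985 nuclear regions, 28810 (22.9%) qualified, in 6189 host genes. All 28810 lay wholly inside the spans of the genes they overlapped. A region's host was the shortest such gene, and 28496 regions overlapped 1 gene only. A further 303 overlapped 2 and 11 overlapped 3 or more, up to 15 in the protocadherin alpha cluster, and each region was counted once.

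The assay was ATAC-seq, which maps exposed DNA by where a transposase inserts sequencing adapters, and the cells were A375, an established human melanoma line. One group of 2 libraries came from cells given 1 mM octanoate, a fatty acid of medium chain length, for 48 h, and the other group of 2 from cells given its vehicle, isopropanol. In bulk ATAC-seq, more cells with an open region and more cuts per cell cannot be told apart. Both groups were the same line in the same medium with serum, and the labels do not say whether the libraries of a group were separate cultures, so p-values measure only the spread between these libraries. The deposited table holds 1 fold change and 1 mean per region and 0 columns for single libraries, so no value per library is given and the depth of each library is unknown. Of the melanoma markers, 6 of 7 had a listed region within 1 kb of a gene end. TYR had none, and MITF had the strongest, with a mean of 168 normalized reads over all libraries. All 3 markers of undifferentiated melanoma had one (28.4 to 73.9). Of markers of other cell types, 0 of 4 epithelial and 3 of 4 blood cell genes had one, with CD3E highest at 70.1, and their part in the results was not tested.

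Open chromatin within a gene body has several known sources. Enhancers, which are bound by transcription factors and act on promoters at a distance, often sit in introns. Other such sites are internal promoters, from which shorter transcripts of the host gene start, and sites that organise chromatin loops. Medium-chain fatty acids enter mitochondria largely without the carnitine shuttle and feed acetyl-CoA, the donor for histone acetylation.

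RefSeq start sites separated the deep regions into kinds that the selection had not used. Each RefSeq start window covers 250 bases before to 50 after an annotated transcription start (GRCh38.p14). A window of a protein-coding gene was overlapped by 875 deep regions, called internal-start regions here, and 99.7% of the windows so overlapped belonged to the host gene itself. A further 188 overlapped only the window of a long noncoding RNA gene, and 27747 overlapped none. The start table is not complete, so some of the last kind may hold a start it does not list. Internal-start regions were wider (median 974 bp against 411 bp) and stronger (median mean of 43.7 normalized reads against 11.4) than deep regions without a window.

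Their windows are shown because this kind of region had a lower median fold change than deep regions without a window. The first 3 below lie in the internal-start regions past the authors' threshold, and 2 of these belong to 1 region within ZBTB38. The HDAC4 window lies in a histone deacetylase gene, and the last 3 lie in very strong internal-start regions that did not pass. Sequences are RefSeq's, from GRCh38.p14, written 5′ to 3′ on the gene's strand, which is the minus strand for HDAC4 and UBE2D3 and the plus strand for the others. Capitals mark matches, on either strand, to 4 motifs: the GC box GGGCGG, the CCAAT box CCAAT, the AP-1 motif TGANTCA and the TEAD motif GGAATG.
MCF2L chr13:113044396-113044695: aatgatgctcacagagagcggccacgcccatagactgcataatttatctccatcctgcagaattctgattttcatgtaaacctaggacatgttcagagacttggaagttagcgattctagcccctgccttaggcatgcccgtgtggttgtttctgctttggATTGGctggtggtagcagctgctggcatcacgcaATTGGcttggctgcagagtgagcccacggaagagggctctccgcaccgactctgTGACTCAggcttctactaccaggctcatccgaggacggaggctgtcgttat
ZBTB38 chr3:141367747-141368046: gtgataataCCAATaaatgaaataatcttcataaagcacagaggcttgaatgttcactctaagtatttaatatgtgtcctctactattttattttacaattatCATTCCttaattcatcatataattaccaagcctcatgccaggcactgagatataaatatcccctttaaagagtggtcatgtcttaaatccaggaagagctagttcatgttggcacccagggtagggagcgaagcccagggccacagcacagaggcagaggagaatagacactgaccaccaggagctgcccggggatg
ZBTB38 chr3:141368254-141368553: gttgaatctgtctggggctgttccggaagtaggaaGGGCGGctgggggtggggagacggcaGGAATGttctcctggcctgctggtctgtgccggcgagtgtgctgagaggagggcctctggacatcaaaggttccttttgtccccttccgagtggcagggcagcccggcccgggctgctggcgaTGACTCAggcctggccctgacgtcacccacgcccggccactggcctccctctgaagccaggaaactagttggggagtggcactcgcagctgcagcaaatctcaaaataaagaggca
HDAC4 chr2:239274732-239275031: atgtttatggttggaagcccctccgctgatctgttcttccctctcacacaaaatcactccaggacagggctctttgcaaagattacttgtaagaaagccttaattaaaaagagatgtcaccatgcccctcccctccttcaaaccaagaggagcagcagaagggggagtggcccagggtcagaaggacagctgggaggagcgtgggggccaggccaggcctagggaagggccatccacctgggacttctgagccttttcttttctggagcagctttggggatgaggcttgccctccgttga
LARP1 chr5:154755127-154755426: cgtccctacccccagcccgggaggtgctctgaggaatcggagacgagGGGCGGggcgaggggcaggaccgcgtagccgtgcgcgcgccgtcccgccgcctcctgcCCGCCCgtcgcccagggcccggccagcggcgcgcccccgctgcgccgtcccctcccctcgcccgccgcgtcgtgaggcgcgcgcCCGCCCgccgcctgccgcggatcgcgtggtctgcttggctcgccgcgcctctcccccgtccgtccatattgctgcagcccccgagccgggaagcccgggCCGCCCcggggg
KDM4C chr9:6757723-6758022: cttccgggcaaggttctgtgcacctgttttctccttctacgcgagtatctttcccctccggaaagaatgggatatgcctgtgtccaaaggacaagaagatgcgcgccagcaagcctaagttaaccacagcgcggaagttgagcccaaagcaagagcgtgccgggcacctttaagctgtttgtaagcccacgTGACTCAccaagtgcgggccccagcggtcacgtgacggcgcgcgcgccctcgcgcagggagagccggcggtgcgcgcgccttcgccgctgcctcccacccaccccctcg
UBE2D3 chr4:102826809-102827108: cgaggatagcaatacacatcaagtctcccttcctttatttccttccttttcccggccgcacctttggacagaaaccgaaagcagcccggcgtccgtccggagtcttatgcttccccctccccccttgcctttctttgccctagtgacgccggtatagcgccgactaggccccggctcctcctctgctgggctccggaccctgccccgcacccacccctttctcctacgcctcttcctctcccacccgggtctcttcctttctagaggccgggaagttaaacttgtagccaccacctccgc

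These windows differed in their content of CpG, the dinucleotide that is dense in the promoters of broadly active genes. The LARP1 window held 50 CpG and 4 GC boxes, and the KDM4C window held 29 CpG. The 3 windows in regions past the threshold held 11 (MCF2L), 2 and 13 (both ZBTB38). Of the other windows in regions that did not pass, that of HDAC4 held 3 and that of UBE2D3 held 19. The AP-1 motif was found in the MCF2L window, in 1 of the 2 ZBTB38 windows and in the KDM4C window, and the HDAC4 and UBE2D3 windows held no match to any of the 4 motifs.

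Across the 1064 windows of protein-coding genes that overlapped deep regions, the median was 19 CpG. It was 27 in the 12748 protein-coding windows that overlapped regions within 1 kb of a gene end. All 35116 RefSeq windows had a median of 14, but 12917 of these belong to long noncoding RNA genes. The AP-1 motif was in 9.87% of the windows in deep regions, 4.31% of those at gene ends and 7.71% of all windows. GC boxes were in 54.7%, 73.5% and 45.0% respectively. For the CCAAT box the shares were 34.6%, 35.3% and 34.6%, and for the TEAD motif 13.5%, 10.2% and 14%. A match describes the letters of a window and does not show that a factor is bound.

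Octanoate was compared with vehicle to ask which of these regions gained or lost accessibility. The authors adjusted p-values only where a region's mean reached 63.8 normalized reads, here called tested regions, and 1472 deep regions (5.11%) in 1013 host genes reached this. Of the 1472, 22 had an adjusted p under 0.05 in the authors' deposited table (DESeq2, Benjamini-Hochberg), all of them higher after octanoate and 0 lower. This was 1.49% of tested deep regions, against 1.02% of all 11184 tested nuclear regions. By position, 0.354% of the tested regions within 1 kb of a gene end passed, and 1.64% of those deep in genes of 500 kb or more. Outside genes and over 10 kb from them 2.35% passed, and 1.39% in the remaining positions. Each of the 22 lay in a different gene. Their log2 fold changes in the authors' deposited table lay between 0.54 and 1.36, the median being 0.78, and 3 of the 22 at least doubled. At an unadjusted p under 0.05, 309 tested deep regions (21%) were higher and 4 (0.272%) lower in the authors' deposited table, against 14.8% and 0.107% of all tested nuclear regions. Higher at that p were 9.15% of tested regions near gene ends, 25.8% deep in the longer genes, 22.9% outside genes and 19.7% in the remaining positions.

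Most fold changes in the whole table lay above 0. The authors' scaling is not stated, and a shift made by scaling cannot be told apart here from a wide gain in accessibility, so a rise below means a rise on the authors' scale. For this reason, the same values were also read against the median of all tested nuclear regions, a log2 fold change of 0.19. After that median was subtracted, 3 deep regions passed an adjusted p of 0.05, of which 2 were higher and 1 was lower, against 0.0536% of all tested nuclear regions. The higher pair lay in TNR (adjusted p 0.0129) and PCNX2 (adjusted p 0.0342), and the lower one in RGS20 (adjusted p 0.0342), all by the recomputed Wald p with Benjamini-Hochberg adjustment. The other 20 rises passed on the authors' scale only. Subtracting the median of all nuclear regions, 0.23, in its place ended the PCNX2 call (adjusted p 0.0914) and left TNR and RGS20 (adjusted p 0.0274 each).

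The genes that held the 22 regions are grouped by what they are known to do, a grouping made after their values were seen, and a rise given with a gene's name is that of its deep region. Matrix and cell contact genes held 3. TNR encodes tenascin-R, a matrix glycoprotein of the nervous system, and its region (chromosome 1, 175470725 to 175471842) rose 2.56-fold, which is a log2 value of 1.36 in the authors' deposited table (95% interval 0.87 to 1.84, adjusted p 0.000119). The same gene held 25 other deep regions, 22 of them above 0, with a median log2 fold change of 0.50. A region 11.7 kb from an end of AJAP1, which encodes a protein of adherens junctions, rose by 0.96 ± 0.26 (standard error) in the authors' deposited table (chromosome 1, 4666303 to 4667828, adjusted p 0.0277). In IGSF9B, an immunoglobulin-family adhesion gene of inhibitory synapses, the rise was 0.69 ± 0.16 in the authors' deposited table (chromosome 11, 133934370 to 133935579, adjusted p 0.00696).

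Signalling genes held 7 of the regions. EGFR encodes the receptor of epidermal growth factor, and its region, 77.4 kb from the nearest gene end, rose by 0.70 ± 0.19 in the authors' deposited table (chromosome 7, 55132504 to 55134277, adjusted p 0.0344). WNT9A, a secreted WNT ligand, rose by 1.04 (chromosome 1, 227934582 to 227935460, adjusted p 0.0101) and RAMP1, a partner of the receptor for calcitonin gene-related peptide, by 0.92 (chromosome 2, 237898206 to 237899225, adjusted p 0.0255) in the authors' deposited table. A pair of kinase genes followed in the authors' deposited table: PRKCZ, an atypical protein kinase C, at 0.54 (chromosome 1, 2132108 to 2136116, adjusted p 0.00108), and PRKAG2, a regulatory subunit of the energy-sensing AMP-activated kinase, at 0.80 (chromosome 7, 151796132 to 151798222, adjusted p 0.0105). Regulators of small GTPases were ARHGAP26, with a rise of 1.06 at 219.4 kb from the nearest gene end (chromosome 5, 143008852 to 143009628, adjusted p 0.0062), and MCF2L, with 0.76 (chromosome 13, 113044132 to 113045872, adjusted p 0.0305) in the authors' deposited table. The PRKCZ region had the smallest standard error of the 22, 0.11, and the highest mean, 450.9 normalized reads.

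Genes of the nucleus and the centrosome held 4. ZBTB38 encodes a zinc finger protein that binds methylated DNA, and its internal-start region rose by 0.60 ± 0.13 in the authors' deposited table (chromosome 3, 141366307 to 141369040, adjusted p 0.00433). A region in ZNF254, a KRAB zinc finger gene, rose by 0.90 (chromosome 19, 24054031 to 24055046, adjusted p 0.00971), and one in TOP1, DNA topoisomerase I, by 0.75 (chromosome 20, 41058008 to 41058997, adjusted p 0.0277) in the authors' deposited table. KRAB zinc finger genes form families of closely related copies, and whether reads were shared among copies is not given in the sources used here. CDK5RAP2, which encodes a centrosome protein, rose by 0.73 (chromosome 9, 120402848 to 120403787, adjusted p 0.0393) in the authors' deposited table.

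Genes of membranes and metabolism held 5. ALDH1A3 makes retinoic acid from retinaldehyde, and its region rose by 0.76 ± 0.19 in the authors' deposited table (chromosome 15, 100890832 to 100892240, adjusted p 0.0168). ATP9B, a P4-type ATPase, rose by 0.74 (chromosome 18, 79245333 to 79246969, adjusted p 0.00139), and SNX25, a sorting nexin, by 0.66 (chromosome 4, 185304958 to 185307457, adjusted p 0.0344) in the authors' deposited table. KIAA0319L, whose product serves as a receptor for adeno-associated virus, rose by 0.99 (chromosome 1, 35448260 to 35449739, adjusted p 0.0157) in the authors' deposited table. The rise in PCNX2, a membrane protein of the pecanex family, was 0.88 ± 0.16 in the authors' deposited table (chromosome 1, 233112676 to 233114462, adjusted p 0.000119).

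The last 3 were in C10orf143 (chromosome 10, 130064814 to 130066858), KIAA0040 (chromosome 1, 175168794 to 175170218) and BIVM (chromosome 13, 102825412 to 102826983). They rose by 0.84, 0.71 and 0.91, in the authors' deposited table, at adjusted p-values of 0.00561, 0.00585 and 0.0184. The BIVM region overlapped another, longer gene as well. Chromosome 1 held 7 of the 22 regions and 235 of the 1472 tested ones.

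**Figure D1:**
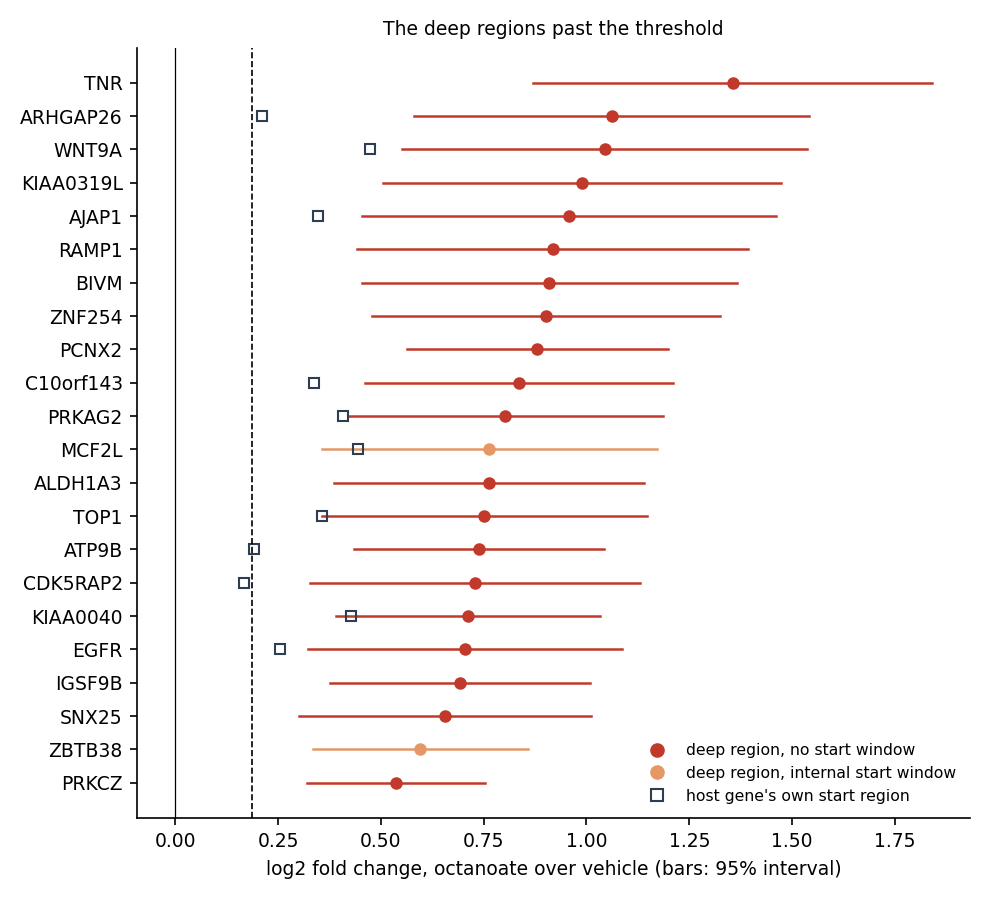
Log2 fold change (octanoate over vehicle) of the 22 deep regions past the threshold, 1 row per host gene. Points are the authors' deposited values and bars their 95% intervals from the deposited standard errors. Open squares show the host gene's own start region where 1 was listed, and the dashed line is the median of tested nuclear regions, 0.19. Values run from 0.54 (PRKCZ) to 1.36 (TNR), and each of the 11 squares lies to the left of its point.

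For 11 of the 22 host genes the table also listed a region within 1 kb of a gene end that overlapped a RefSeq start window. Those start regions had log2 fold changes from 0.17 (CDK5RAP2) to 0.47 (WNT9A) in the authors' deposited table, in each case below the deep region of the same gene. The deep regions were picked for passing the threshold, so this order is a description and not a test. The start region of EGFR, for example, had 0.25 (standard error 0.24) in the authors' deposited table, against 0.70 for its deep region.

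Other deep regions of the same 22 genes numbered 183, and 142 of them (77.6%) were above 0, with a median of 0.34 against 0.24 for all deep regions. Of these, 21 were tested, in 10 genes. Of the 21, 20 (95.2%) were above 0 and 8 (38.1%) had an unadjusted p under 0.05 in the authors' deposited table, beside 86.1% and 21% of all tested deep regions. Of the 8, 4 were among the 6 within 5 Mb of a chromosome end, a stretch in which 44.8% of tested deep regions were higher at that p, and 4 among the 15 farther away. The part of this position was not tested. MCF2L had 2 of them, at 0.46 (standard error 0.21) and 0.56 (standard error 0.25) in the authors' deposited table, and ZBTB38 2 more, at 0.50 and 0.64. In PCNX2 the other tested regions ran from -0.27 to 0.48 in the authors' deposited table, and none of these passed.

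Under the authors' minimum were 27338 deep regions, of which 771 (2.82%) were higher and 52 (0.190%) lower at an unadjusted p under 0.05 in the authors' deposited table. The shares over all 114801 nuclear regions under that minimum were close to these, 2.48% higher and 0.186% lower.

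No deep region fell past the threshold. The 4 lower ones at an unadjusted p under 0.05 in the authors' deposited table lay in RGS20, ATP9A, XKR4 and VIT. RGS20 encodes a regulator that switches off G proteins, and its region (chromosome 8, 53904562 to 53906022) had a value of -0.77 in the authors' deposited table (95% interval -1.21 to -0.34, adjusted p 0.0508). The ATP9A region had -0.58 (adjusted p 0.261), the XKR4 region -0.53 (adjusted p 0.308) and the VIT region -0.53 (adjusted p 0.280) in the authors' deposited table. VIT was named after its value was seen, because it completed this count.

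The median log2 fold change was 0.24 over all 28810 deep regions and 0.23 over the 1472 tested ones, against 0.23 and 0.19 for nuclear regions. Above 0 were 71.3% of all deep regions and 86.1% of tested ones, against 72.1% and 85.7% for nuclear regions. The middle 50% of deep regions lay between -0.05 and 0.54, and the median standard error of 1 deep region was 0.62. Near gene ends, within 1 kb, the median was 0.14, and deep regions exceeded it by 0.103. Deep regions of genes of 500 kb or more had 0.25 and regions outside genes 0.26, and the medians of deep regions minus these were -0.010 and -0.012. With no value per library the spread of these class differences between replicates was not measured, and they are descriptions.

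Internal-start regions had a lower median than deep regions without a start window. Their median log2 fold change was 0.13, against 0.25 for deep regions without a start window, a difference of -0.123. Among tested regions the medians were 0.15 over 314 and 0.26 over 1137. The 188 deep regions at a long noncoding RNA start had a median of 0.23, and the 21 of them that were tested had 0.13, with 0 past the threshold and 4 higher at an unadjusted p under 0.05. Of the 314 tested internal-start regions 2 (0.637%) were past the threshold in the authors' deposited table, and of the 1137 without a window 20 (1.76%) were, beside the 1.02% of all tested nuclear regions. At an unadjusted p under 0.05, 29 internal-start regions (9.24%) and 276 without a window (24.3%) were higher in the authors' deposited table. The 6217 tested regions at gene ends had a median of 0.16, with 9.15% higher at that p, and their 1054 members without a start window had 0.15 and 10.6%. The 203 tested regions outside genes that overlapped a long noncoding RNA start had 0.23 and 22.7%, against 0.26 and 23% without a start window. At gene ends, 111 tested regions with only a long noncoding RNA start had 0.15 and 5.41%. Deep in genes of 500 kb or more, 45 tested regions with a protein-coding start had 0.15 and 8.89%. There, 14 with only a long noncoding RNA start had 0.06 and 7.14%, and 306 without a window 0.27 and 29.1%. The difference between the 2 kinds of deep region was not tested, for the reason given above.

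**Figure D2:**
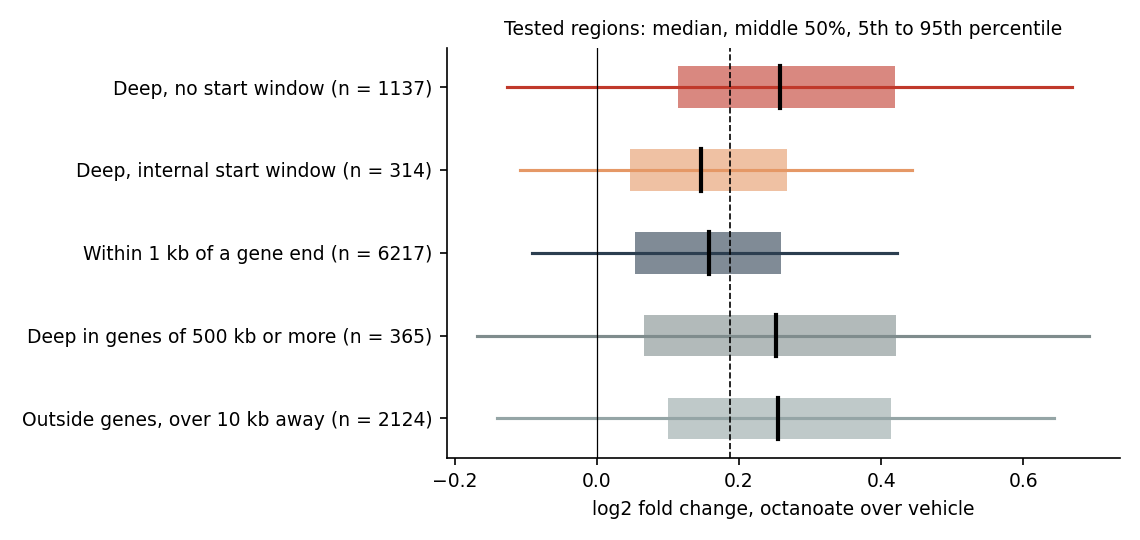
Deposited log2 fold changes of tested regions in 5 position groups. The black line is the median, the box the middle 50% and the thin line the 5th to 95th percentile of regions (not spread between replicates), and the dashed line is the median of tested nuclear regions, 0.19. Deep regions with an internal start window (median 0.15) sit with regions at gene ends (0.16), and deep regions without one (0.26) with regions outside genes (0.26).

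Signal strength moves with this split, since internal-start regions were the stronger ones. In 12 bins of mean signal with at least 20 regions of each kind, the internal-start regions had the lower median in 12. At matched signal over 20 bins the difference was -0.144, against -0.123 without matching. In the top bin the medians were 0.17 for 192 internal-start regions and 0.26 for 455 without a window.

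**Figure D3:**
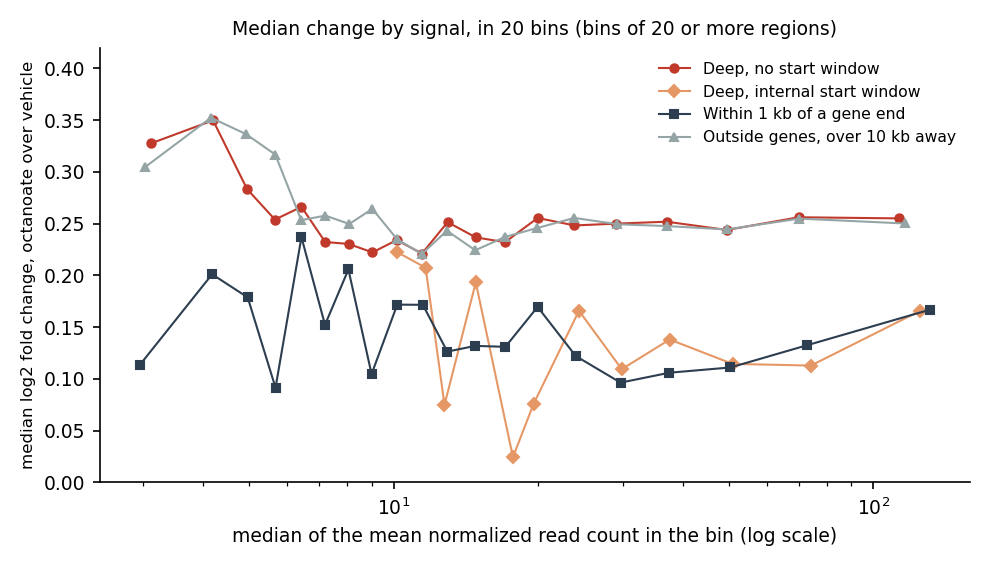
Median log2 fold change (vertical axis) against signal, taken as the median over each of 20 bins of the regions' mean normalized reads (log axis), for bins with at least 20 regions. In the 12 bins that hold both kinds, deep regions without a start window run from 0.22 to 0.26 beside regions outside genes, and internal-start regions lie lower, from 0.02 to 0.22.

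Fold changes were also read by the CpG content of the start window. Internal-start regions whose richest window had at most 5 CpG had a median of 0.18 (184 regions), and the bins above, which end at 10, 20, 30 and 60 CpG, had 0.15, 0.12, 0.13 and 0.11. At gene ends the same 5 bins gave 0.24, 0.14, 0.12, 0.14 and 0.13. Signal rose with CpG content, from a median mean of 15.7 normalized reads in the lowest bin of internal-start regions to 69.4 in the highest, and the part of signal in this was not tested. Both internal-start regions past the threshold fell in the bin of 10 to 20 CpG, which held 51 tested regions. That was 3.92% of the bin, beside 0.637% of all 314 tested internal-start regions.

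By motif in the windows, medians differed little among the 314 tested internal-start regions, of which 9.24% were higher at an unadjusted p under 0.05. With an AP-1 match the median was 0.19 (27 regions, 6 of them higher at an unadjusted p under 0.05 in the authors' deposited table) and without one 0.14 (287 regions, 23 higher). Both regions past the threshold, 0.637% of the 314, had an AP-1 and a CCAAT match. The GC box and the TEAD motif were each matched in 1 of them and absent from the other. The CCAAT box gave 0.19 with (132 regions, 18 higher at an unadjusted p under 0.05) and 0.13 without (182 regions, 11 higher). For the GC box the medians were 0.14 with (229 regions, 18 higher) and 0.17 without (85 regions, 11 higher). The TEAD motif gave 0.12 with (44 regions, 5 higher) and 0.15 without (270 regions, 24 higher). None of these differences was tested.

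Deep regions were also set beside the start region of their own gene. In 287 genes with a tested start region at a gene end and a tested deep region without a window, the deep regions (averaged per gene) were higher in 188 (65.5%), by a median of 0.10. In 59 genes with a tested internal-start region the internal start was higher than the outer start in 34 (57.6%), by a median of 0.015. In 63 genes with both kinds tested, the regions without a window were higher in 43, by a median of 0.088. Each gene supplied both values in these comparisons, which are descriptions with no test.

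Some deep regions also overlapped noncoding genes inside the hosts. A long noncoding RNA gene was overlapped by 2460 deep regions, whose median of 0.25 stood beside 0.24 for the rest. None of the 186 tested ones was past the threshold in the authors' deposited table, against 22 of 1286 others (1.71%), and at an unadjusted p under 0.05, 26 of the 186 were higher and 1 was lower, beside 21% higher of all tested deep regions. A pseudogene was overlapped by 119 deep regions (median 0.25), of which 10 were tested, 0 were past the threshold and 6 were higher at that p. A microRNA gene was overlapped by 26 deep regions, with 8 tested, 0 past the threshold and 2 higher at an unadjusted p under 0.05.

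Genes with many deep regions showed how much regions of 1 gene varied. Most deep regions were found in PLD5 (57), MAML2 (49), CACNA1E (45), MAML3 (42) and MCC (39). MAML2 and MAML3 encode coactivators of Notch signalling, and their deep regions had medians of 0.13 and 0.14. CACNA1E, a voltage-gated calcium channel gene, had a median of 0.46 with 35 of 45 regions above 0, but its median signal was 8.93 normalized reads and none was tested. PLD5 likewise had 48 of 57 above 0, a median of 0.41 and no tested region. MCC, a negative regulator of WNT signalling, had 33 of 39 above 0 and a median of 0.35.

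Most tested deep regions were found in IGF1R and SH3PXD2A (8 each) and in AMOTL1, CNIH3 and MAML2 (7 each), and none of these was past the threshold. IGF1R encodes the receptor of insulin-like growth factor 1, and its 8 regions lay between 0.13 and 0.55 in the authors' deposited table, 4 of them with an unadjusted p under 0.05, beside 21% of tested deep regions. All 8 lay between 3.08 and 3.25 Mb from the end of chromosome 15, and 44.8% of tested deep regions less than 5 Mb from such an end were higher at that p. The other genes, all farther from chromosome ends, had 2 of 8 (SH3PXD2A), 3 of 7 (AMOTL1), 2 of 7 (CNIH3) and 0 of 7 (MAML2) at that p. In SH3PXD2A, which encodes a scaffold of invadopodia, the 8 regions ran from -0.16 to 0.79 in the authors' deposited table. AMOTL1, an angiomotin family member that binds YAP, had values from -0.01 to 0.88 in the authors' deposited table, the highest with an adjusted p of 0.0556. CNIH3, a partner of AMPA glutamate receptors, ran from -0.38 to 0.50 in the authors' deposited table. None of the values below 0 in these genes had an unadjusted p under 0.05, and those of IGF1R and MAML2 were all above 0.

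**Figure D4:**
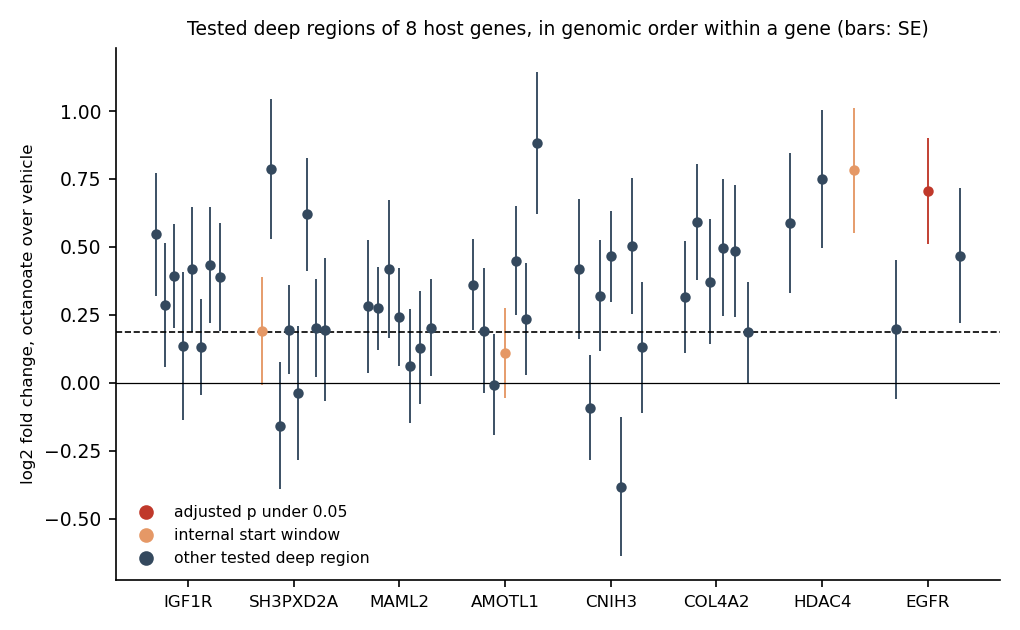
Deposited log2 fold change of every tested deep region of 8 host genes, in genomic order within each gene. Bars are the deposited standard errors, and the dashed line is the median of tested nuclear regions, 0.19. All 8 regions of IGF1R lie above 0, SH3PXD2A runs from -0.16 to 0.79, and the 3 of HDAC4 lie between 0.59 and 0.78.

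Over the 108 host genes with at least 3 tested deep regions, all tested regions were above 0 in 72 and all below 0 in 1, and the median range within a gene was 0.39. Across the 459 pairs of neighbouring tested deep regions within 1 gene, Pearson's r of the fold changes was 0.149. It was 0.194 over 253 neighbouring pairs in different genes less than 500 kb apart and 0.129 over 737 pairs farther apart. These are correlations across regions, which share libraries and are not replicates.

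Of 808 host genes with at least 10 deep regions, 721 had a median above 0. The medians ran from -0.06 at the 5th percentile to 0.55 at the 95th. At the top, chosen after values were seen, were NOS1 (neuronal nitric oxide synthase, median 0.92, 13 of 13 regions above 0), KCNQ3 (a potassium channel, 0.81, 18 of 21) and OCA2 (a melanosome transporter mutated in albinism, 0.80, 10 of 10). At the bottom were COLEC12 (a scavenger receptor, -0.36, 4 of 12 above 0), XKR4 (-0.29, 4 of 10) and CHD9 (a chromatin remodeller, -0.29, 2 of 12). Their regions were weak, with median signals of at most 10.7 normalized reads outside CHD9, and none of these regions was past the threshold.

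The 9 gene lists were read by counts and medians of their deep regions, beside the median of 0.24 for all deep regions. Genes of histone acetylation and deacetylation had 68 deep regions in 13 genes with a median of 0.36. None of the 9 tested was past the threshold and 3 (33.3%) had an unadjusted p under 0.05, beside 21% of tested deep regions, all in HDAC4, a class IIa histone deacetylase gene. These 3 lay between 2.91 and 2.99 Mb from the end of chromosome 2, and 44.8% of tested deep regions within 5 Mb of a chromosome end were higher at that p. The part of this position was not tested, and 0 of the list's 6 other tested regions had such a p. Its regions had 0.59 (standard error 0.26), 0.75 (standard error 0.25) and 0.78 (standard error 0.23, adjusted p 0.0552) in the authors' deposited table, the last holding the start window printed above. Fatty acid use genes had 58 deep regions in 22 genes with a median of 0.46. Their 2 tested regions, in ACOX3 (a peroxisomal acyl-CoA oxidase) and ACSS1 (mitochondrial acetyl-CoA synthetase), both internal starts, had 0.05 and 0.10 in the authors' deposited table, and neither had an unadjusted p under 0.05.

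Melanocytic genes had 116 deep regions with a median of 0.13 and undifferentiated melanoma genes 228 with 0.12. In the undifferentiated list 1 of 16 tested regions, that of EGFR, was past the threshold, beside 1.49% of tested deep regions, 2 (12.5%) were higher at an unadjusted p under 0.05, beside 21%, and the lowest value was -0.05 in BNC2 in the authors' deposited table. A region in ROR2, a receptor of noncanonical WNT signals, had 0.66 (adjusted p 0.119) in the authors' deposited table. None of the 4 tested melanocytic regions passed in the authors' deposited table, 1 (25%) had an unadjusted p under 0.05, beside 21% of tested deep regions, and they ran from -0.00 in MREG to 0.80 in OCA2 (adjusted p 0.0758).

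The adhesion and matrix list, which does not hold TNR, AJAP1 or IGSF9B, had 297 deep regions in 31 genes with a median of 0.26. None of the 23 tested passed, while 9 (39.1%) had an unadjusted p under 0.05, all higher in the authors' deposited table, beside 21% of tested deep regions. They ran from -0.13 in ITGA9, an integrin, to 0.67 in PXN, the focal adhesion adaptor paxillin (adjusted p 0.0702) in the authors' deposited table. The type IV collagen gene COL4A2 held 6 of them, 3 at such a p, with values from 0.19 to 0.59 in the authors' deposited table, all between 3.85 and 4.03 Mb from the end of chromosome 13. Of the list's 16 tested regions over 5 Mb from a chromosome end 6 were higher at that p, and of the 7 nearer 3 were, beside 44.8% of tested deep regions there.

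ERK pathway genes had 103 deep regions with a median of 0.28 and 0 of 9 tested past the threshold, with 3 (33.3%) at an unadjusted p under 0.05 beside 21% of tested deep regions. Their tested values ran from -0.06 in ETV5, an ETS factor, to 0.79 in SPRED2, an inhibitor of RAS signalling (adjusted p 0.0955) in the authors' deposited table. Neuronal genes had 269 with a median of 0.34 and 0 of 10 past it (1, or 10%, at an unadjusted p under 0.05), the lowest at -0.30 in the glutamate receptor gene GRIA4 in the authors' deposited table. Of the lists for other cell types, blood cell genes had 17 deep regions with a median of 0.11 and epithelial genes 29 with 0.31. Tested among these were 2 in PTPRC, at 0.05 and 0.11, and 1 in KRT8, at 0.23, none past the threshold or an unadjusted p of 0.05 in the authors' deposited table.

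Medians over all deep regions moved little with the position within the gene. The median log2 fold change was 0.25 at 10 to 20 kb from the nearest gene end (6523 regions) and 0.23 at 160 to 250 kb (1121 regions), and between 0.23 and 0.25 in the bins between. Of the 22 regions past the threshold, 8 lay at 10 to 20 kb, where 2.31% of tested regions passed in the authors' deposited table, beside 1.49% of all tested deep regions. The bins beyond, in order of distance, had 0.983%, 1.48%, 1.12% and 2.33%, the last being 1 of 43. Along the host gene, read from its 5′ end in 23418 regions whose gene has a strand in the start table, medians were 0.24 in the first 20% of the length and 0.25 in the last 20%. By host length they lay between 0.22 (200 to 300 kb) and 0.26 (50 to 100 kb). Regions just outside the distance limit, 8 to 10 kb from a gene end, had 0.24, and those just inside, at 10 to 12 kb, 0.24 as well. At the length limit, regions of genes in the last 50 kb below 500 kb had 0.24 and those in the first 50 kb above it 0.26. Tested regions differed more. Just outside and just inside the distance limit their medians were 0.22 (97 regions) and 0.27 (94 regions). Below and above the length limit they were 0.20 (72 regions) and 0.31 (46 regions), with 18.1% and 30.4% higher at an unadjusted p under 0.05. These differences were not tested.

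Position along the chromosome moved with the fold change much more. Deep regions within 5 Mb of the outermost listed region of a chromosome end had a median of 0.38 (2026 regions), those at 5 to 10 Mb 0.30, and those more than 40 Mb away 0.20 (11859 regions). Of the 22 regions past the threshold 9 (40.9%) were this close to an end, against 9.10% of tested deep regions. These were the regions of AJAP1, RAMP1, C10orf143, MCF2L, ALDH1A3, ATP9B, IGSF9B, SNX25 and PRKCZ. Without the last 5 Mb of chromosomes, 13 regions passed in the authors' deposited table and the median of all deep regions was 0.235. The difference between internal-start regions and those without a window was -0.128 there. By chromosome, medians ran from 0.16 on chromosome 4 (1675 regions) to 0.34 on chromosome 15 (1017 regions) and 0.37 on chromosome 21 (209 regions). On chromosome 15 all 50 tested deep regions were above 0. Chromosome 21 had only 2 tested ones, with a median of -0.02 and 50% above 0.

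**Figure D5:**
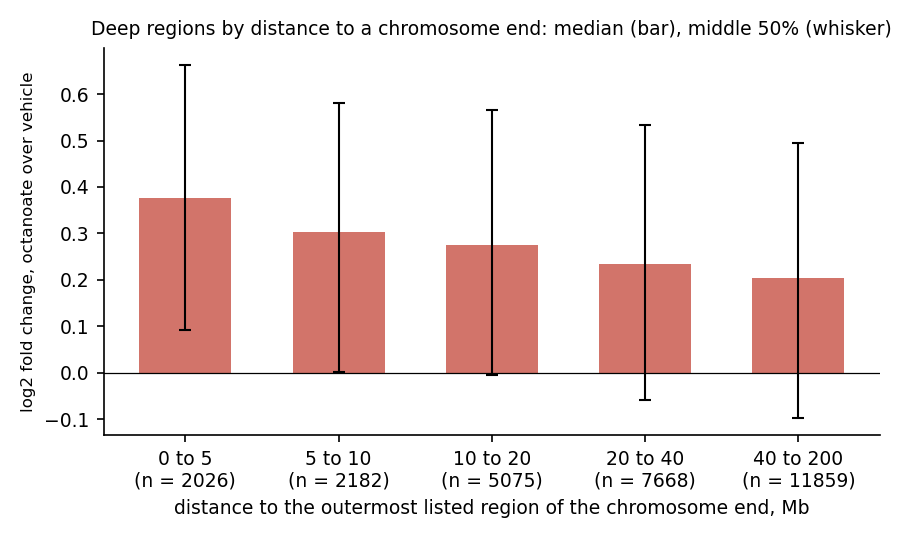
Median log2 fold change of deep regions (bars) by distance to the outermost listed region of the nearest chromosome end, in Mb, with the middle 50% of regions as whiskers (not spread between replicates). The median declines from 0.38 within 5 Mb to 0.20 beyond 40 Mb. The short-arm ends of chromosomes 13, 14, 15, 21 and 22 were not counted as ends.

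The 5 strongest deep regions had values between 0.21 and 0.54, and PRKCZ alone among them passed the threshold. The highest mean, 5314 normalized reads, belonged to a region within LOC102724250 (chromosome 1, 628986 to 635021) with a value of 0.21 ± 0.072 (log2, standard error) in the authors' deposited table, which did not pass (adjusted p 0.108). Next was one within PCBD2 (chromosome 5, 134923259 to 134928608) with a mean of 1524 and a value of 0.22 in the authors' deposited table (adjusted p 0.150). Both stretches are known nuclear copies of mitochondrial DNA, and their values are uncertain because reads of the copies may be shared. The mitochondrial genome itself had 0.10 (standard error 0.082) in the authors' deposited table. HS1BP3 (mean 362.6, log2 fold change 0.33, adjusted p 0.134) and LARP1, which encodes an RNA-binding regulator of translation (mean 351.1, log2 fold change 0.28, adjusted p 0.225), completed the 5 with PRKCZ, which rose by 0.54 in the authors' deposited table. Among the windows printed, the KDM4C region had 0.12 (standard error 0.12) and the UBE2D3 region -0.07 (standard error 0.13) in the authors' deposited table.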

How the data were processed

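ATAC-seq of A375 cells gave 4 libraries, 2 after octanoate and 2 after vehicle, grouped by sample title. Per the submitters' processing notes, reads were handled with Trim Galore, cutadapt, FastQC, Bowtie2, Picard, MACS2, featureCounts, DESeq2 and bedtools 2.29.1 on hg38, in an order and with settings not given in the sources used here, including any shift for the Tn5 cut and how regions were merged. The authors deposited 1 table of 125986 regions. Its signal column is, per the file headers, the mean normalized read count over all libraries, with a scaling that is not stated. A deposited log2 fold change above 0 means more signal after octanoate, and its standard error is listed with it. The deposited score equals the fold change divided by that error with differences of at most 2.31e-14. Each deposited p-value is the authors' own. Their adjusted p equalled a Benjamini-Hochberg adjustment of 11185 p-values, those at means from 63.8 up, and was listed as 1 elsewhere, which was read as not tested.

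No count model could be fitted here, so tests of the groups rest on the deposited values. Regions were placed with the RefSeq gene table of GRCh38.p14 (20037 nuclear protein-coding genes), coordinates counted from 1. Start windows (35116, for 15843 protein-coding genes and for long noncoding RNA genes) came from the RefSeq start table. Exons and introns were not used. Centred Wald p-values, and Benjamini-Hochberg adjustment over every nuclear region, were recomputed from the deposited values, with Python 3.11.15, numpy 2.4.6, pandas 2.3.3 and scipy 1.17.1, and the adjustment and position classes were tested on simulated data.

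Named regions were those past an adjusted p of 0.05 (at most the 25 largest changes, 1 per host gene), any fall past it, the 3 lowest tested fold changes, the 5 strongest regions, the 5 genes with most deep regions and the 5 with most tested ones, and the extremes of 9 gene lists. Some results under these rules are not reported here. The regions, lists and rules were chosen with earlier results of these data known. Alternatives changed the threshold, the adjustment, the centring, the limits of the selection, the signal and the chromosome stretch. Intervals from the deposited standard errors cover the fitted error of 1 region.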

Additional observations from a re-analysis of the deposited data

How the results depend on the processing

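The 22 deep regions past the threshold, all higher, became 10 at an adjusted p of 0.01, 3 with at least a doubling as well, 6 with Benjamini-Hochberg over every nuclear region, 14 at over 20 kb from gene ends, and, chosen after seeing the data, 13 without the last 5 Mb of chromosomes, again all higher. An adjusted p of 0.1 gave 66 (65 higher, 1 lower). Centring on the tested median gave 3 (2 higher, 1 lower) and on the median of all nuclear regions 2 (1 higher, 1 lower); each subtracts a constant from mostly positive values. Of the 22 named regions 5, 2 and 1 passed under the adjustment over all regions and the 2 centrings, PCNX2 being lost under the last. The median of 0.244 was 0.235 in tested regions, 0.235 over 5 Mb from chromosome ends, and 0.0151 relative to all nuclear regions. In tested regions the differences were 0.0774 from gene ends and -0.0208 from regions outside genes; at matched signal that between internal-start and other deep regions was -0.144; the cause was not tested. The other alternatives stayed within 1.5 times for counts and within the 95% binomial interval for medians. That interval treats regions as independent although they share libraries, so it does not measure spread between replicates. No paired analysis was possible because single libraries have no values, and leaving out a replicate or another normalization was not run for the same reason.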
